A study of Mus musculus with 12 samples.

Results

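Heat shock proteins are molecular chaperones, and 8 of their genes are described here in mouse embryonic stem cells (ESC): Hspb1, Hspb8, Hspa1a, Hspa1b, Hsp90aa1, Hsph1, Dnajb1 and Hsf1. They were taken by exact gene symbol from the annotation of the array, with the probe set of highest mean signal standing for each gene. The genes were chosen with earlier results of these data known, so their counts and ranks beside all genes are descriptions. Of the 8 genes, 7 had a probe set of their own and all 7 passed the filter on low signal, among 17621 genes tested in all. Hspa1b was named only on a probe set that also names Hspa1a. That shared probe set was tested apart and is not counted among the 7.

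When proteins unfold, chaperones of the HSP70, HSP90 and HSP110 families and the small heat shock proteins hold or refold them, and DNAJ proteins deliver clients to HSP70. The transcription factor HSF1, held inactive in unstressed cells, trimerises under stress and binds heat shock elements, which are arrays of the unit nGAAn in alternating orientation. Embryonic stem cells are known for a high basal level of several chaperones.

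RNA was measured on 12 Affymetrix gene arrays in 4 groups of 3. Bmpr1a-/- ESC, without the type I receptor BMPR1A of bone morphogenetic proteins and carrying green fluorescent protein (GFP), and unlabelled wild-type ESC were each grown for 3 days in N2B27, a serum-free medium, either alone (separate) or mixed in equal proportions. Mixed cultures were sorted on GFP before RNA extraction. Sorting of the separate cultures is not mentioned in the labels, so co-culture and sorting cannot be told apart. Genotype, cell line and GFP cannot be told apart either. The file headers name 1 line per genotype, and the labels do not say that replicates were independent cultures, so p-values may measure technical spread only.

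The arrays had median signals of 51.6 to 54.3. Bmpr1a gave a signal of 362 to 462 on the Bmpr1a-/- arrays and 505 to 588 on the wild-type arrays. The position of its probes relative to the deletion is not stated in the labels, so this checks the labels only weakly. Of 11 measured ESC markers, in each kind of culture Bmpr1a-/- cells had 6 higher and 1 lower. That is 63.6%, beside 11.2% of all genes in separate and 16.5% in mixed culture. Fewer cells of a type and less RNA per cell cannot be told apart in such bulk samples.

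Upstream sequence is shown for Hspb1 and Hspb8, the small heat shock members, which passed between the genotypes in mixed culture. It is also shown for the members whose 250 bases before the start site hold a pair of heat shock units. The sequences are from RefSeq (GRCm38.p6), which listed 6 of the 8 genes. Capitals mark GAANNTTC or TTCNNGAA, each of which is its own reverse complement and so reads the same on both strands.
Hspb1 (chr5:135887669-135887918, plus strand, 250 bases up to the start site): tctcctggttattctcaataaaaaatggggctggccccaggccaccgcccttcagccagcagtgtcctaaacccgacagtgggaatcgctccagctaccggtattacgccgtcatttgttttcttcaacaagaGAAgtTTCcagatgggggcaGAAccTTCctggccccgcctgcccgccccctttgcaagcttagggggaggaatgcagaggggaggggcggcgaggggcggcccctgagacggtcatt
Hspb8 (chr5:116422865-116423114, minus strand, 250 bases up to the start site): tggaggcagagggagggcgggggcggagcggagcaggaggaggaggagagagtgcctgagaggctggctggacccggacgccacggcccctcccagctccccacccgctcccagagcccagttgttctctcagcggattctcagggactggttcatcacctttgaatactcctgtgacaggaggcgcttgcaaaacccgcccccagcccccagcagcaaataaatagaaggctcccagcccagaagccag
Hspa1a (chr17:34972242-34972271, minus strand, 30 bases): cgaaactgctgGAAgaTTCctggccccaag
Hspa1b (chr17:34959324-34959353, minus strand, 30 bases): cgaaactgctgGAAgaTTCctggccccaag
Hsph1 (chr5:149636351-149636380, minus strand, 30 bases): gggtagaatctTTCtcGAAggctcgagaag

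Hspb1 held 2 matches, from -117 to -110 and from -97 to -90 relative to its start site. Hspa1a and Hspa1b each held 1 at -104 to -97, and Hsph1 held 1 at -33 to -26 from its first start site. Hspb8 and Dnajb1 held none, and no matches overlapped. Over all 32851 windows of this length, 12.8% held a match, and over the 82 windows of other chaperones 18.3% did. A longer form of 3 alternating units was also searched, and no window of these members held it. That form was found in 0.466% of all windows and in 4.88% of those of other chaperones. The windows of Hspa1a and Hspa1b differed at 3 of 250 bases, and no protein-coding gene lay between these neighbours. A match of letters is a description of the window, not evidence of binding.

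**Figure D1:**
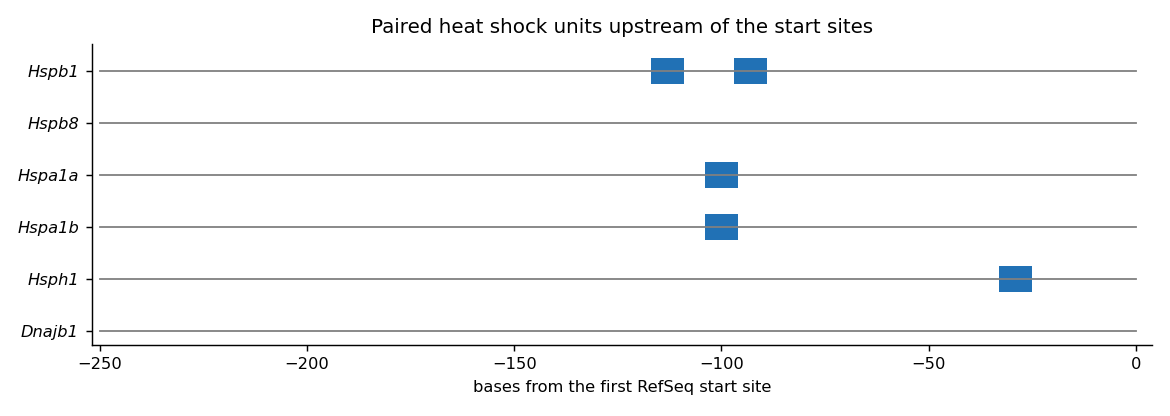
Matches to GAANNTTC or TTCNNGAA (bars) in the 250 bases before the first RefSeq start site of 6 heat shock genes, by distance from that site in bases. Hspb1 has 2 matches, Hspa1a, Hspa1b and Hsph1 have 1 each, and Hspb8 and Dnajb1 have none.

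Hspb1 was higher in Bmpr1a-/- cells in both kinds of culture, and Hspb8 in mixed culture, while between mixed and separate culture no member passed in either genotype in the fit without a block by replicate number. In separate culture 1 of 7 members was higher in Bmpr1a-/- cells and none lower, where 11.2% of all genes passed (4.94% higher and 6.3% lower). In mixed culture 2 of 7 were higher and none lower, where 16.5% of all genes passed (6.36% higher and 10.1% lower). Replicate numbers pair the mixed groups, and with the number as a block in a fit of the mixed arrays alone 4 of 7 passed, 2 higher (Hspb1 and Hspb8) and 2 lower (Hsph1 and Hsf1), where 32.2% of all genes passed (2119 genes higher and 3553 lower). By the rule for pairing given below, the numbers pair no other groups, so a block over all arrays or in other groups assumes a pairing not shown. Unless a block is named, values are from the fit without it. Tests were made with limma over all 17621 genes, with Benjamini-Hochberg adjusted p under 0.05 as the threshold, and log2 differences are given with the standard error (SE).

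**Figure D2:**
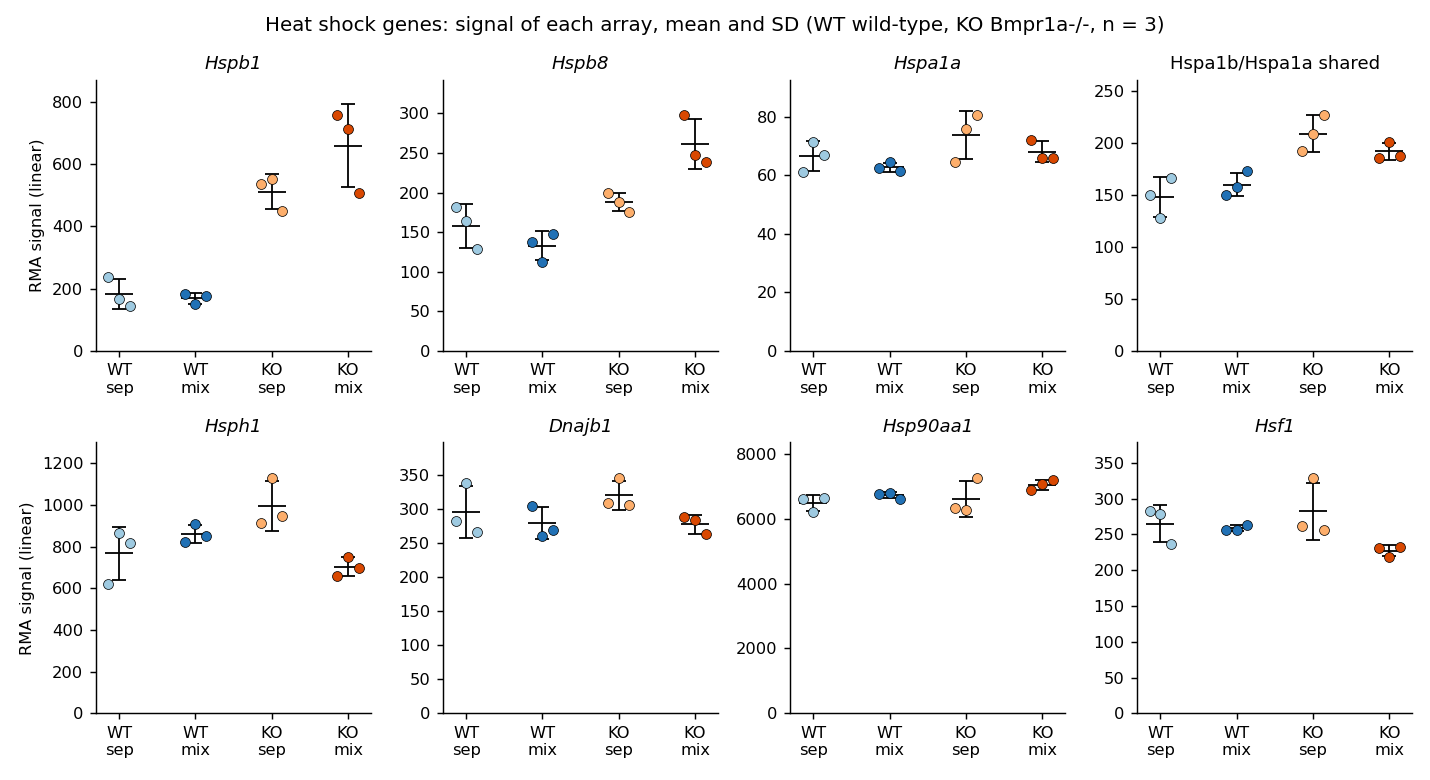
RMA signal (linear, each axis from 0) of every array for 7 heat shock genes and the probe set shared by Hspa1b and Hspa1a, by genotype (WT wild-type, KO Bmpr1a-/-) and culture (sep separate, mix mixed); lines give the mean and SD, n = 3. For Hspb1 the Bmpr1a-/- arrays (449 to 758) lie above all wild-type arrays (143 to 237).

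Hspb1 encodes HSP27, a small heat shock protein that holds unfolding proteins and protects actin filaments. Its signal was 237, 166 and 143 in separate and 183, 149 and 175 in mixed wild-type cells. Bmpr1a-/- cells gave 536, 552 and 449 when separate and 758, 714 and 507 when mixed. All 6 Bmpr1a-/- arrays were above all 6 wild-type arrays, while the mixed and separate arrays of each genotype overlapped. The mean rose from 182 ± 49.4 (SD, n = 3) in wild-type to 512 ± 55.7 in Bmpr1a-/- cells in separate culture, a log2 difference of 1.52 (SE 0.18, limma adjusted p = 0.00038). In mixed culture the means were 169 ± 17.6 and 660 ± 134, a difference of 1.95 (SE 0.18, limma adjusted p = 2.9e-05). These are folds of 2.87 (95% interval 2.18 to 3.77) and 3.86 (2.93 to 5.07), ranking 21 and 27 from the highest among 17621 genes.

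The second Hspb1 probe set gave 1.47 (limma adjusted p = 0.00067) and 1.87 (adjusted p = 5.9e-05). Both differences passed under all 21 alternatives run for each, the second probe set included. Mixed minus separate culture gave 0.35 (SE 0.18, limma adjusted p = 0.41) in Bmpr1a-/- and -0.08 (SE 0.18, adjusted p = 1.0) in wild-type cells, and neither passed. The difference between those changes, 0.43 (SE 0.26, adjusted p = 0.62), did not pass either.

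Hspb8 encodes HSP22, a small heat shock protein that works with BAG3 to send misfolded proteins to autophagy. Its signal was 182, 164 and 128 in separate and 138, 112 and 148 in mixed wild-type cells. Bmpr1a-/- cells gave 199, 188 and 176 when separate and 298, 247 and 239 when mixed. The mixed Bmpr1a-/- arrays were above the other 9 arrays, and the separate arrays of both genotypes overlapped. In mixed culture Hspb8 was higher in Bmpr1a-/- cells by 0.98 (SE 0.14, limma adjusted p = 0.00037), with means of 261 ± 31.6 against 133 ± 18.4, a fold of 1.97 (95% interval 1.61 to 2.42). In separate culture the difference of 0.26 (SE 0.14, limma adjusted p = 0.27) did not pass.

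Mixed minus separate culture gave 0.47 for Hspb8 in Bmpr1a-/- (SE 0.14, limma adjusted p = 0.11) and -0.25 in wild-type cells (SE 0.14, adjusted p = 1.0). The difference between these, 0.72 (SE 0.19, unadjusted p = 0.0024, limma adjusted p = 0.13), did not pass. With replicate number as a block over all 12 arrays the co-culture change in Bmpr1a-/- cells passed (limma adjusted p = 0.034, and 0.015 in a fit of the Bmpr1a-/- arrays alone), and so did the difference between the changes (adjusted p = 0.04). Without separate wild-type replicate 3 the latter was 0.86 and passed (limma adjusted p = 0.047). Whether the genotype difference of Hspb8 depends on culture thus turns on the fit.

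Hspa1a and Hspa1b encode the stress-inducible HSP70, which is strongly induced by heat. The probe set of Hspa1a alone gave a signal of 61.1 to 80.5 on the 12 arrays, near the array medians. Its Bmpr1a-/- and wild-type ranges overlapped in separate culture (64.6 to 80.5 and 61.1 to 71.4), and in mixed culture they did not (65.8 to 72.1 and 61.3 to 64.4). The differences of 0.14 (SE 0.09, limma adjusted p = 0.37) and 0.11 (SE 0.09, adjusted p = 0.47) did not pass.

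The probe set shared by Hspa1b and Hspa1a cannot tell these genes apart. It gave 150, 128 and 166 in separate and 150, 158 and 173 in mixed wild-type cells. It gave 192, 209 and 227 in separate and 186, 201 and 188 in mixed Bmpr1a-/- cells. All 6 Bmpr1a-/- arrays were above all 6 wild-type arrays. It was higher in Bmpr1a-/- cells by 0.50 (SE 0.10, limma adjusted p = 0.006) in separate culture. In mixed culture the difference of 0.26 (SE 0.10, limma adjusted p = 0.09) did not pass, and with replicate number as a block it did (adjusted p = 0.047). The probe set of Hspa1a alone did not pass in either culture, so the probe sets naming Hspa1a disagree on the call in separate culture.

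Hsph1 encodes HSP105 of the HSP110 family, which exchanges the nucleotide of HSP70. Its signal was 621, 866 and 815 in separate and 820, 906 and 850 in mixed wild-type cells. It was 911, 1130 and 945 in separate and 660, 751 and 698 in mixed Bmpr1a-/- cells. The separate Bmpr1a-/- arrays were the highest of all groups, above both mixed Bmpr1a-/- and separate wild-type arrays without overlap. Mixed minus separate culture gave -0.50 in Bmpr1a-/- cells (SE 0.12, unadjusted p = 0.0011, limma adjusted p = 0.059), which did not pass (adjusted p = 0.0069 with replicate number as a block over all arrays, 0.012 in a fit of the Bmpr1a-/- arrays alone). The means were 703 ± 45.9 and 995 ± 118, a fold of 0.709 (95% interval 0.593 to 0.847).

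In wild-type cells the same comparison of Hsph1 gave 0.18 (SE 0.12, limma adjusted p = 1.0). The difference between the genotypes' changes was -0.67 (SE 0.17, unadjusted p = 0.0016, limma adjusted p = 0.11), which did not pass (adjusted p = 0.012 with the block over all arrays). Bmpr1a-/- minus wild-type gave 0.38 in separate (SE 0.12, limma adjusted p = 0.057) and -0.29 in mixed culture (SE 0.12, adjusted p = 0.12). Neither passed without a block. With the block over all arrays both passed (limma adjusted p = 0.0068 in separate and 0.022 in mixed culture), though the numbers pair only the mixed groups. With the block in a fit of the groups compared, limma adjusted p was 0.042 in separate and 0.0038 in mixed culture. Of 20 alternatives each, Hsph1 passed in 5 for co-culture in Bmpr1a-/- cells (adjusted p from 0.0069 to 0.22), in 5 for genotype in separate culture (0.0068 to 0.22) and in 4 for genotype in mixed culture (0.0038 to 0.30). Among these, 1 left-out array was enough: without separate wild-type replicate 1, adjusted p was 0.023 for co-culture and 0.047 for genotype in mixed culture, and without separate wild-type replicate 2 it was 0.043 for genotype in separate culture.

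Dnajb1 encodes HSP40, a DNAJ partner that stimulates HSP70. Its signal spanned 261 to 346 on the 12 arrays, and the genotypes overlapped in both kinds of culture. Bmpr1a-/- minus wild-type gave 0.12 (SE 0.10, limma adjusted p = 0.52) in separate culture. In mixed culture the difference was under 0.01 in size, with a 95% interval from -0.21 to 0.21. In Bmpr1a-/- cells the mixed arrays (263 to 289) lay below the separate arrays (306 to 346), a difference of -0.20 (SE 0.10, limma adjusted p = 0.36) that did not pass.

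Hsp90aa1 encodes the stress-inducible cytosolic HSP90, which folds kinases and steroid receptors. Its signal spanned 6213 to 7258 on the 12 arrays. Bmpr1a-/- minus wild-type gave 0.02 (95% interval -0.12 to 0.17) in separate and 0.07 (-0.08 to 0.22) in mixed culture. The other 2 probe sets gave 0.06 and 0.06 in separate and 0.07 and 0.07 in mixed culture, so all 3 differed little and none passed. Mixed minus separate culture gave 0.10 in Bmpr1a-/- (SE 0.07, limma adjusted p = 0.61) and 0.05 in wild-type cells (SE 0.07, adjusted p = 1.0).

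Hsf1 encodes the transcription factor that drives the heat shock response. Bmpr1a-/- cells gave a signal of 261, 329 and 256 when separate and 231, 218 and 233 when mixed. Wild-type cells gave 282, 278 and 236 when separate and 256, 256 and 263 when mixed. The mixed Bmpr1a-/- arrays were below all other arrays. In Bmpr1a-/- cells mixed minus separate culture gave -0.30 (SE 0.10, unadjusted p = 0.0083, limma adjusted p = 0.15), which did not pass. In mixed culture Bmpr1a-/- minus wild-type gave -0.19 (SE 0.10, limma adjusted p = 0.24), and adjusted p was 0.032 with replicate number as a block in a fit of the mixed arrays alone. An RNA level of Hsf1 says nothing of the activity of its protein.

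**Figure D3:**
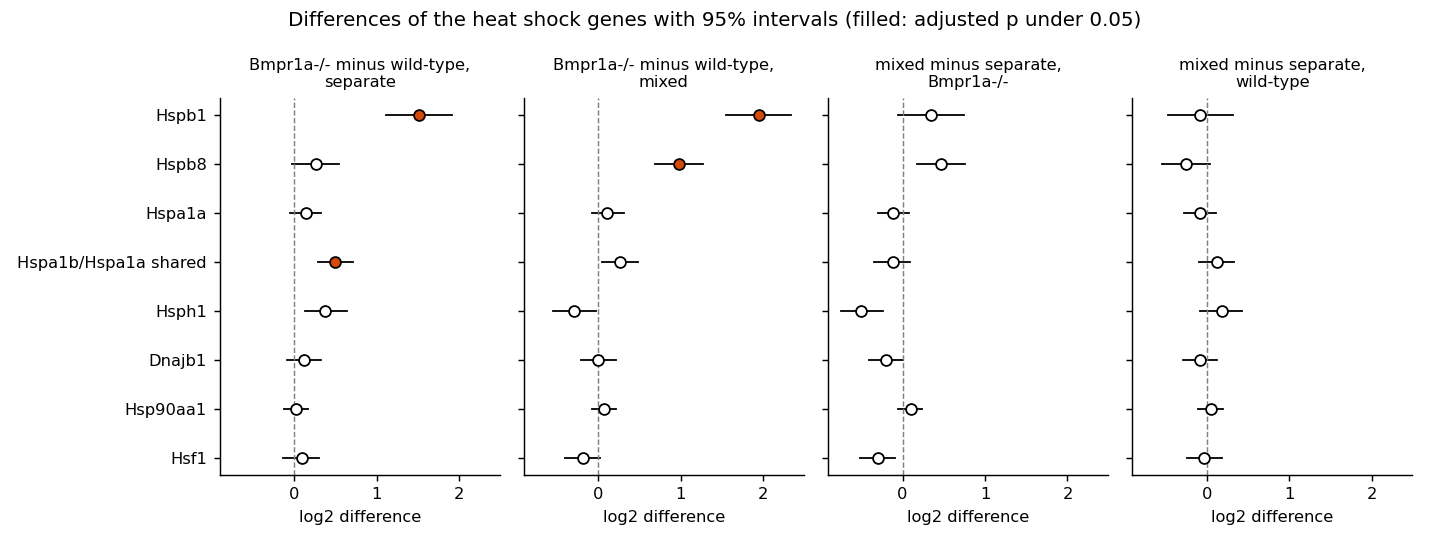
Log2 differences of the heat shock genes with 95% intervals from limma in 4 comparisons; filled points passed at adjusted p under 0.05. Hspb1 passed in both genotype comparisons (1.52 and 1.95), Hspb8 in mixed culture (0.98) and the shared probe set in separate culture (0.50), and none passed between mixed and separate culture in this fit, which has no block.

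By count, in limma, 0 of 7 members passed between mixed and separate culture in Bmpr1a-/- cells, where 1.58% of all genes passed (0.789% higher and 0.795% lower). At an unadjusted p under 0.05 there were 3 (Hsph1, Hspb8 and Hsf1). In wild-type cells 0 of 7 passed and 0 had an unadjusted p under 0.05, where 0.0% of all genes passed and 2.93% had such a p (14.9% in Bmpr1a-/- cells). For the difference between the changes, 0 of 7 passed and 2 had an unadjusted p under 0.05 (Hsph1 and Hspb8, against 11.3% of all genes), where 0.687% of all genes passed (0.301% higher and 0.386% lower). The 3-array ranges did not overlap for 4 of 7 members between mixed and separate Bmpr1a-/- cells (18.0% of all genes) and for 0 of 7 in wild-type cells (6.99%). Between the genotypes they did not overlap for 2 of 7 in separate (24.5%) and 6 of 7 in mixed culture (32.7%). The median difference of the 7 members was -0.11 between mixed and separate Bmpr1a-/- cells and 0.14 between the genotypes in separate culture, and -0.02 over all genes in both. It was -0.08 between mixed and separate wild-type cells (-0.01 over all genes). Between the genotypes in mixed culture it was 0.07 (-0.02), and for the difference between the changes -0.03 (-0.01).

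**Figure D4:**
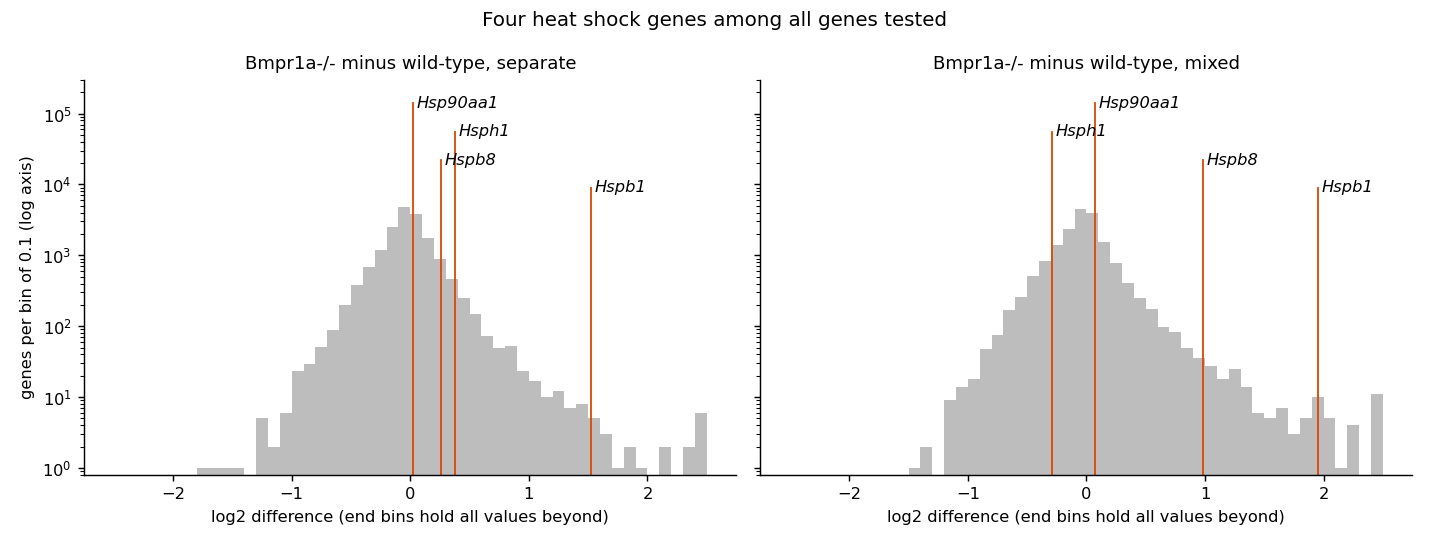
Distribution of log2 differences (Bmpr1a-/- minus wild-type) over 17621 genes in bins of 0.1, with counts on a log axis, in separate and mixed culture; lines mark 4 heat shock genes. Hspb1 lies in the upper tail in both (1.52 and 1.95), Hspb8 at 0.26 in separate and 0.98 in mixed culture, and Hsp90aa1 near 0 in both.

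The members did not vary as 1 group. Over 12 arrays the log2 signals of Hspb1 and Hspb8 had a Pearson correlation of 0.896, with 0.829 over the 6 Bmpr1a-/- and 0.805 over the 6 wild-type arrays. Hspb8 and Hsph1 had -0.421, with -0.89 and -0.704 within the genotypes. Hsph1 had 0.90 with Dnajb1 and 0.901 with Hsf1 over the 6 Bmpr1a-/- arrays, and 0.03 and -0.433 over the 6 wild-type arrays. These values describe arrays that share groups and normalization.

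The genes most like each member over the 12 arrays, by Pearson correlation of log2 signal, were sought among the genes tested. Symbols made of Gm plus digits or ending in Rik were left out. The values are the highest of many over arrays that share groups, so they describe likeness only, group differences included. For Hspb1 they were Elf3 (0.991), LOC100043292 (0.989) and Six4 (0.989), and for Hspb8 they were Mpp1 (0.971), Ldhb (0.966) and Pwwp2b (0.966). For Hsph1 they were Fjx1 (0.969), Trim44 (0.932) and Top1 (0.923), and for Hsf1 they were Thap12 (0.94), OTTMUSG00000022410 (0.916) and Meaf6 (0.912). For Dnajb1 they were Slc35e1 (0.926), Sart3 (0.907) and Vipas39 (0.906). The likeness was lower for Hspa1a (Cyp4x1 0.835, Pitpnm2 0.807 and LOC624256 0.805) and Hsp90aa1 (Susd3 0.871, Alpk3 0.848 and Stac 0.842).

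Of 81 other chaperone genes listed, 80 were measured. Between the genotypes in separate culture 1 was higher and 10 were lower in Bmpr1a-/- cells, and in mixed culture none was higher and 18 were lower. The shares of 13.8% and 22.5% stand beside 11.2% and 16.5% of all genes. Of 8 listed as small heat shock genes, none was higher, 1 was lower in separate (Hspb6) and 2 in mixed culture (Hspb6 and Hspb11), which is 12.5% and 25.0%. Whether each listed gene belongs to that protein family was not tested. Of 15 measured genes known to be induced by heat, 1 was higher (Bag3) and 2 lower (Hspa4l and Serpinh1) in separate culture, and 2 were lower (Hspa4l and Stip1) in mixed culture. The counts depended on single arrays, as did those over all genes. Without 1 array, 1083 to 1967 of all genes passed in separate and 1851 to 3122 in mixed culture. In separate culture 4 passed without separate wild-type replicate 2, 7 without its replicate 3, and 5 and 7 without separate Bmpr1a-/- replicates 2 and 3. In mixed culture 11 passed without mixed wild-type replicate 2 and 7 without mixed Bmpr1a-/- replicate 2. With replicate number as a block in a fit of the mixed arrays alone, 32 of 80 passed in mixed culture, 4 higher and 28 lower. In that fit 32.2% of all genes passed.

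In separate culture Bag3, the HSP70 cochaperone that partners HSPB8, was the gene that rose, from a signal of 130 to 169 (0.37, SE 0.11, limma adjusted p = 0.041). It passed in 7 of 20 alternatives (limma adjusted p from 0.014 to 0.13), and leaving out 1 array, such as separate wild-type replicate 3 or separate Bmpr1a-/- replicate 2, was enough to lose the call. The falls included Hspa4l, of the HSP110 family (-0.55), Cct4, a subunit of the cytosolic chaperonin (-0.54), and Aarsd1 (-0.44). Hspa12a, a distant HSP70 relative, and Trap1, the mitochondrial HSP90, both gave -0.39. Ahsa2, related to the activator of the HSP90 ATPase, and Serpinh1, the collagen chaperone, both gave -0.38.

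In mixed culture the largest fall was in Ahsa2, from 191 in wild-type to 105 in Bmpr1a-/- cells (-0.86, SE 0.10, limma adjusted p = 9.7e-05). Bag2, an HSP70 cochaperone (-0.55), Trap1 (-0.54), Hyou1, an HSP110 relative of the endoplasmic reticulum (-0.53), and Hspb11 (-0.53) followed. Hspa13 (-0.50), Cct4 (-0.46) and Aarsd1 (-0.46) completed the 8 largest. Hspa5, the HSP70 of the endoplasmic reticulum, also fell (-0.36, SE 0.10, limma adjusted p = 0.025). Bag3 gave 0.17 in mixed culture (SE 0.11, limma adjusted p = 0.36), which did not pass.

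Of the other genes fixed for naming, 4 did not pass between the genotypes. Hspa8, the constitutive HSP70, gave 0.03 in separate and -0.08 in mixed culture, and Hsp90ab1, the constitutive HSP90, gave 0.04 and -0.03. Hspd1, the mitochondrial chaperonin, gave 0.11 and -0.11, and Hsf2, a relative of Hsf1, gave 0.00 in both. Hspe1, the partner of Hspd1, had no probe set of its own symbol among the genes tested.

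**Figure D5:**
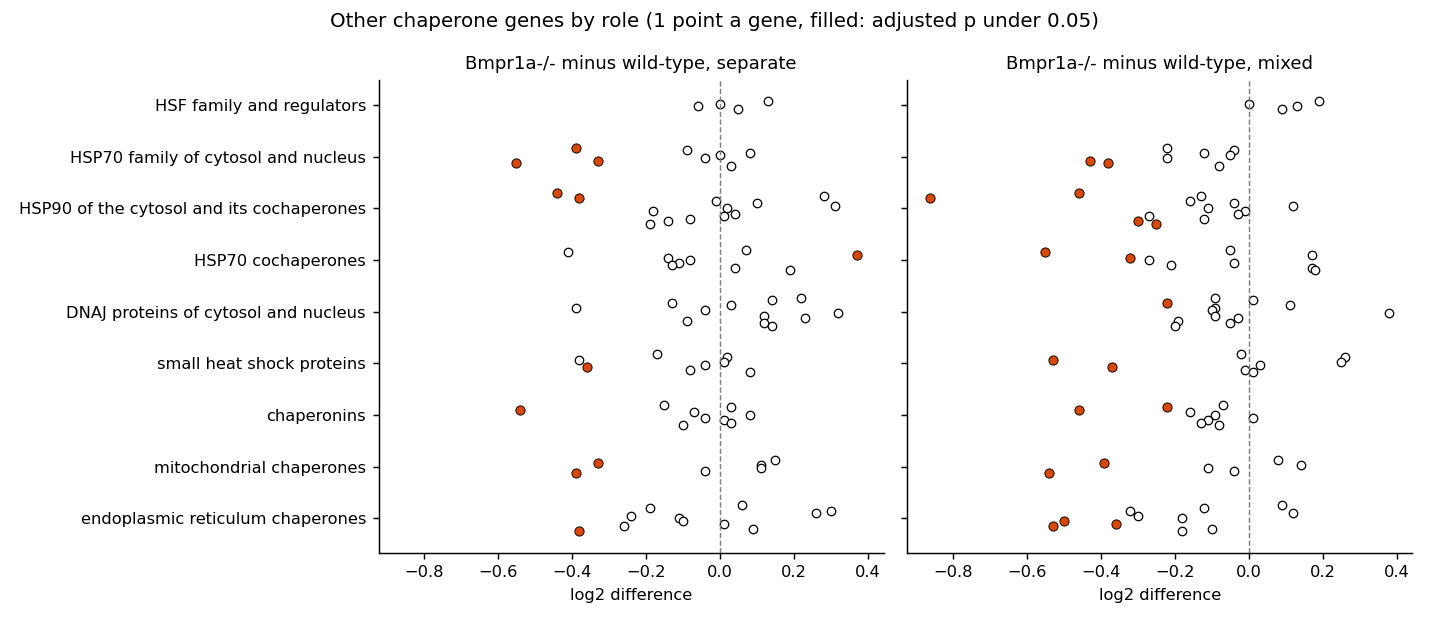
Log2 differences (Bmpr1a-/- minus wild-type) of 80 other chaperone genes by role, 1 point a gene, in separate and mixed culture; filled points passed limma at adjusted p under 0.05. In separate culture 1 filled point is above 0 and 10 are below, and in mixed culture all 18 are below, in this fit, which has no block. With replicate number as a block in a fit of the mixed arrays alone, 4 passed higher and 28 lower.

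Between mixed and separate culture 0 of 80 other chaperones passed limma in Bmpr1a-/- cells (11 at an unadjusted p under 0.05). Of all genes, 1.58% passed there and 14.9% had such a p. The smallest p-values were those of Dnajb11, a DNAJ protein of the endoplasmic reticulum (-0.44, adjusted p = 0.071), Hspa5 (-0.35, adjusted p = 0.11) and Fkbp5, an HSP90 cochaperone (0.28, adjusted p = 0.11). In wild-type cells 0 of 80 passed (2 at an unadjusted p under 0.05), with the smallest p-values in Hspa2 (0.21), Serpinh1 (-0.28) and Cryaa (-0.17), each at limma adjusted p = 1.0. Of all genes, 0.0% passed in that comparison and 2.93% had such a p. For the difference between the changes 0 of 80 passed (7 at an unadjusted p under 0.05), with the smallest in Dnajb11 (-0.63), Ahsa2 (-0.48) and Cct3 (-0.25). Here 0.687% of all genes passed and 11.3% had such a p.

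Other genes moved with genotype beside these chaperones. The summed signal of 11 ESC markers was 8328 to 9343 in separate wild-type and 11319 to 12494 in separate Bmpr1a-/- cells, and 9128 to 9736 and 10540 to 10992 in mixed culture. That of 8 measured fibroblast markers was 770 to 867 and 486 to 625 in separate culture, with 3 lower in Bmpr1a-/- cells, and 641 to 779 and 576 to 600 in mixed culture, with 1 lower. Of 8 extraembryonic endoderm, 8 trophoblast and 7 neural markers, Bmpr1a-/- cells had 2 higher (both trophoblast) and 3 lower (1 of each list) in separate culture, and in mixed culture 3 higher (1 endoderm, 2 trophoblast) and 2 lower (1 endoderm, 1 neural). In separate and mixed culture the shares that passed were 37.5% and 12.5% for fibroblast and 12.5% and 25.0% for endoderm markers. They were 37.5% and 25.0% for trophoblast and 14.3% in both for neural markers, beside 11.2% and 16.5% of all genes. A signal above 0 does not show that a marker was expressed. Sox17, for example, had group means of 26.9 to 27.9, near the filter cut of 25.4. Of 24 genes of handling and dissociation, 4 were higher in separate culture, and 3 were higher and 1 lower in mixed culture. That is 16.7% in each culture, beside 11.2% and 16.5% of all genes. The summed signal of the 24 overlapped between the genotypes in both (4724 to 5535 and 5102 to 6088 in separate culture, 4293 to 5580 and 4940 to 5582 in mixed). Between mixed and separate Bmpr1a-/- cells 1 of the 24 was lower (4.2%, beside 1.58% of all genes). Their part in the differences of Hspb1 and Hspb8 was not tested.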

How the data were processed

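Per the file headers, the authors summarised 12 arrays by RMA at core transcript level with quantile normalization, and left out 1 array of another day. Per the submitters' processing notes this was done in Affymetrix Expression Console 1.2. The deposited workbook holds linear intensity values, which the authors called raw but which are RMA signal, and log2 values centred per probe set, as does the deposited series table. The log2 of the linear values differs from the centred log2 values by a constant per probe set (largest spread 2.2e-06), and it was used here. No genome build is given in the sources used here.

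Symbols of 22700 probe sets with 1 gene were updated through RefSeq (GRCm38.p6), of which 3900 changed. The filter left out probe sets whose mean signal was below 25.4, the 20th percentile of the table, and the highest-mean probe set stood for each of 17621 genes. Group means were fitted to 12 arrays with limma 3.58.1 in R 4.3.3 (8 residual degrees of freedom, eBayes), with two-sided Benjamini-Hochberg adjusted p under 0.05. The code was tested on simulated data. The number of arrays limits the precision.

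The members and lists were chosen with earlier results of these data known. All members are named. Of the other chaperones, the rule named up to 8 with the largest difference among those that passed per comparison, or else the 3 smallest p-values, plus Hspa8, Hsp90ab1, Hspd1, Hspe1, Bag3, Hsf2 and Hspa5, and 3 genes most like each member. Stip1 was chosen after its values were seen, to name a count of 2. The test of the shared probe set and the block within the groups compared were added after seeing the data. Deviations of same-numbered mixed Bmpr1a-/- and mixed wild-type arrays from their group means correlated between 0.3845 and 0.65, every pair over 0.1, so the numbers pair these groups. The file headers call the numbers exp1 to exp3 in all 4 groups but do not say what an experiment shared. Mixed and separate Bmpr1a-/- arrays gave 0.3398, 0.0996 and 0.3741, just short of this rule on 1 pair, and the other pairs of groups fell below it.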

Additional observations from a re-analysis of the deposited data

How the results depend on the processing

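The differences of Hspb1 between the genotypes (1.36 to 1.73 in separate and 1.84 to 2.13 in mixed culture) and of Hspb8 in mixed culture (0.87 to 1.06) passed under every alternative run. Members that passed between mixed and separate Bmpr1a-/- cells numbered 1 with a filter at the 40th percentile or with trend and robust eBayes and 2 with the replicate block over all arrays or over the groups compared, against 0. In separate culture they numbered 2 in each of these 4 settings, against 1. In mixed culture the replicate block within the groups compared gave 4, against 2, and for the difference between the changes the replicate block gave 2, against 0. The blocked calls were Hsph1 and Hspb8 for co-culture and for the difference between the changes, and Hspb1 and Hsph1 in separate culture. By correlation the numbers met the rule for pairing only in the mixed groups. Without 1 array at a time the members that passed ran from 0 to 1, 0 to 1, 1 to 2 and 2 to 3 for co-culture in Bmpr1a-/- cells, the difference between the changes, genotype in separate and genotype in mixed culture.

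Other chaperones that passed between mixed and separate Bmpr1a-/- cells numbered 1 after a second quantile normalization and 3 with either replicate block, against 0, and ran from 0 to 3 without 1 array. In separate culture they numbered 3 with only the groups compared and 7 with the block in that fit, against 11 (4 to 12 without 1 array). In mixed culture that block gave 32, against 18 (7 to 21 without 1 array).

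Over all genes, co-culture in Bmpr1a-/- cells gave 279 calls, 878 with the replicate block, 454 with array weights, 46 with only the groups compared and 816 with the block in that fit (50 to 390 without 1 array). The difference between the changes gave 121, 387 with the replicate block and 209 with array weights (25 to 132). Genotype in separate culture gave 1981, and 1170 with only the groups compared (1083 to 1967). Genotype in mixed culture gave 2905, and 5672 with the block within the groups compared (1851 to 3122).

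In 15 of 766 member settings the sign turned, with no call on either side. For mixed minus separate wild-type cells, leaving out 1 array gave -0.24 to 0.13 for Hspb1, -0.15 to 0.02 for Dnajb1 and -0.11 to 0.01 for Hsf1. For the difference between the changes it gave -0.12 to 0.04 for Hspa1a. For genotype it gave -0.04 to 0.06 for Hsp90aa1 and -0.03 to 0.15 for Hsf1 in separate culture, and -0.05 to 0.07 for Dnajb1 in mixed culture. The other turned signs were -0 for Hsp90aa1 and 0.02 for Dnajb1 after a second quantile normalization and -0.01 for Hsf1 with array weights. The cause of these changes was not tested.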
